A study of Homo sapiens with 6 samples.

Results

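The core circadian clock genes were followed in T24 cells, a human bladder cancer cell line, after silencing of RBM3. The set comprised 10 genes chosen by name, CLOCK, BMAL1, PER1, PER2, PER3, CRY1, CRY2, NR1D1, NR1D2 and DBP, among the 63677 Ensembl identifiers of the count table. All 10 were found, all carried at least 235 counts in every library, and all were among the 15099 genes that passed the filter on low counts. BMAL1 was called ARNTL in older annotations. Both groups were T24 cells, a single line, kept for 4.5 h in medium without serum with a transfection lipid and 25 nM siRNA, then given complete medium and collected the next day. The 3 control libraries (replicates 1, 3 and 5) received a non-targeting siRNA and the 3 siRBM3 libraries (replicates 3, 4 and 5) a mixture of a pair of siRNAs against RBM3. Polyadenylated RNA was sequenced, and the labels give no hour of collection, so levels were compared at a single point and no rhythm could be measured. The labels do not say whether the replicates were separate cultures, so the p-values describe the spread between these libraries.

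The mammalian clock is a transcriptional feedback loop that is present in most cells. CLOCK and BMAL1 form a heterodimer that binds E-box sequences and activates the PER, CRY and NR1D genes and DBP. PER and CRY proteins return to the nucleus and inhibit the heterodimer, while the nuclear receptors NR1D1 and NR1D2 (REV-ERBα and REV-ERBβ) repress BMAL1 through RORE sequences, and DBP activates genes with D-box sequences. Return of serum to cultured cells is known to bring their clocks into step. RBM3 and its relative CIRBP are cold-inducible RNA-binding proteins that have been described to shape the amplitude of clock transcripts in fibroblasts. The study silenced RBM3 to find the genes that respond to it in bladder cancer cells, and the clock genes are described here within that comparison.

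The control sequences of the loop are shown first, since the results below are ordered by the role of each gene in it. RefSeq promoter windows (250 bases before to 50 bases after a transcription start) were available for all 10 genes, as 15 windows. They were placed on GRCh37, the build of the count table, by exact match. The motifs searched on both strands were the E-box CACGTG, the weaker E′-box CACGTT, the D-box as TTATGTAA or TTACGTAA, the RORE as TAGGTCA or AAGGTCA, and the cAMP response element TGACGTCA. No searched pattern contains another. An E-box stood in 2 of the 10 genes (8.77% of all 27305 genes with windows), an E′-box in 5 (6.44%), a D-box in 3 (1.27%), a RORE in 3 (6.94%) and a cAMP response element in 0 (2.25%). A match describes the letters of the window only. The sequences below show 1 motif for each of 7 genes of the different arms of the loop, with the motif in capitals, 5′ to 3′ on the strand of the gene.
PER1, E-box, 173 bases before the start, chr17:8055865-8055920, minus strand: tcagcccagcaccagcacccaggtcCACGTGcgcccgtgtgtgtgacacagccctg
NR1D2, the first of 2 E-boxes, 155 bases before the start, chr3:23987432-23987487, plus strand: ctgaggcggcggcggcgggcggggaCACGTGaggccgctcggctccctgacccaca
NR1D1, E′-box read on the other strand, 168 bases before the start, chr17:38256980-38257035, minus strand: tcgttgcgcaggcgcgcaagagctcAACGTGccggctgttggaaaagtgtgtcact
CRY1, E′-box read on the other strand, 89 bases before the start, chr12:107487386-107487441, minus strand: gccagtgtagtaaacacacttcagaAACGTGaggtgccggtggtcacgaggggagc
PER2, D-box across the start, chr2:239197236-239197265, minus strand: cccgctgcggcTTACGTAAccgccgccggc
PER3, D-box, 177 bases before the start, chr1:7844149-7844206, plus strand: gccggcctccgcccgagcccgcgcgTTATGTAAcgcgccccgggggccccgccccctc
BMAL1, RORE, 30 bases after the start, chr11:13299356-13299384, plus strand: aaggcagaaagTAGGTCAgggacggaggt
The windows of DBP held none of the searched letters.

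Library totals ranged from 23603992 to 45098612 counts, with siRBM3 replicate 3 the deepest, and values are given as CPM (counts per 1000000 counts of the library, after TMM scaling). RBM3 itself had 225 to 368 CPM in control and 54.1 to 90.1 CPM in siRBM3 libraries, or -2.14 on the log2 scale (standard error 0.24), with a Benjamini-Hochberg FDR of 0.0822 from edgeR against 3.87e-14 from DESeq2. The keratins of simple epithelium were abundant (KRT7 at 2354 to 3240 CPM), whereas 7 of 15 urothelial markers, among them KRT5, KRT20, UPK3A and CDH1, were under 1 CPM in every library. Markers of immune, endothelial and fibroblast cells summed to 12.0 to 14.8 CPM. The summed level of 15 S-phase genes was 1085 to 1710 CPM in control and 721 to 1169 CPM in siRBM3 libraries, and the share of mitochondrial counts was 1.63 to 2.86% and 2.32 to 9.40%. The part of these differences in the clock values was not tested. In bulk RNA, a change in the share of cells in a given state and a change per cell cannot be told apart.

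No core clock gene was called after RBM3 silencing. Of the 10 genes, 0 passed a fold change of 1.5 with an FDR below 0.01 in the quasi-likelihood test of edgeR with Benjamini-Hochberg adjustment, as did 0% of all genes tested. The smallest FDR of all genes in that fit was 0.0822, so this rule could call no gene, RBM3 included. At an unadjusted p under 0.05 the number was also 0 of 10, where 13.1% of all genes passed. In 0 of 10 genes did the groups of libraries separate, against 19.9% of all genes. DESeq2, the tool of the study, called 0 of the 10 and 1.22% of the 13068 genes with an adjusted p from that tool, and its smallest adjusted p among the 10 was 0.546. The log2 fold changes ran from -0.36 for NR1D1 to 0.25 for CRY2, 5 on each side of 0, with a median of -0.001 beside -0.008 over all genes.

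**Figure D1:**
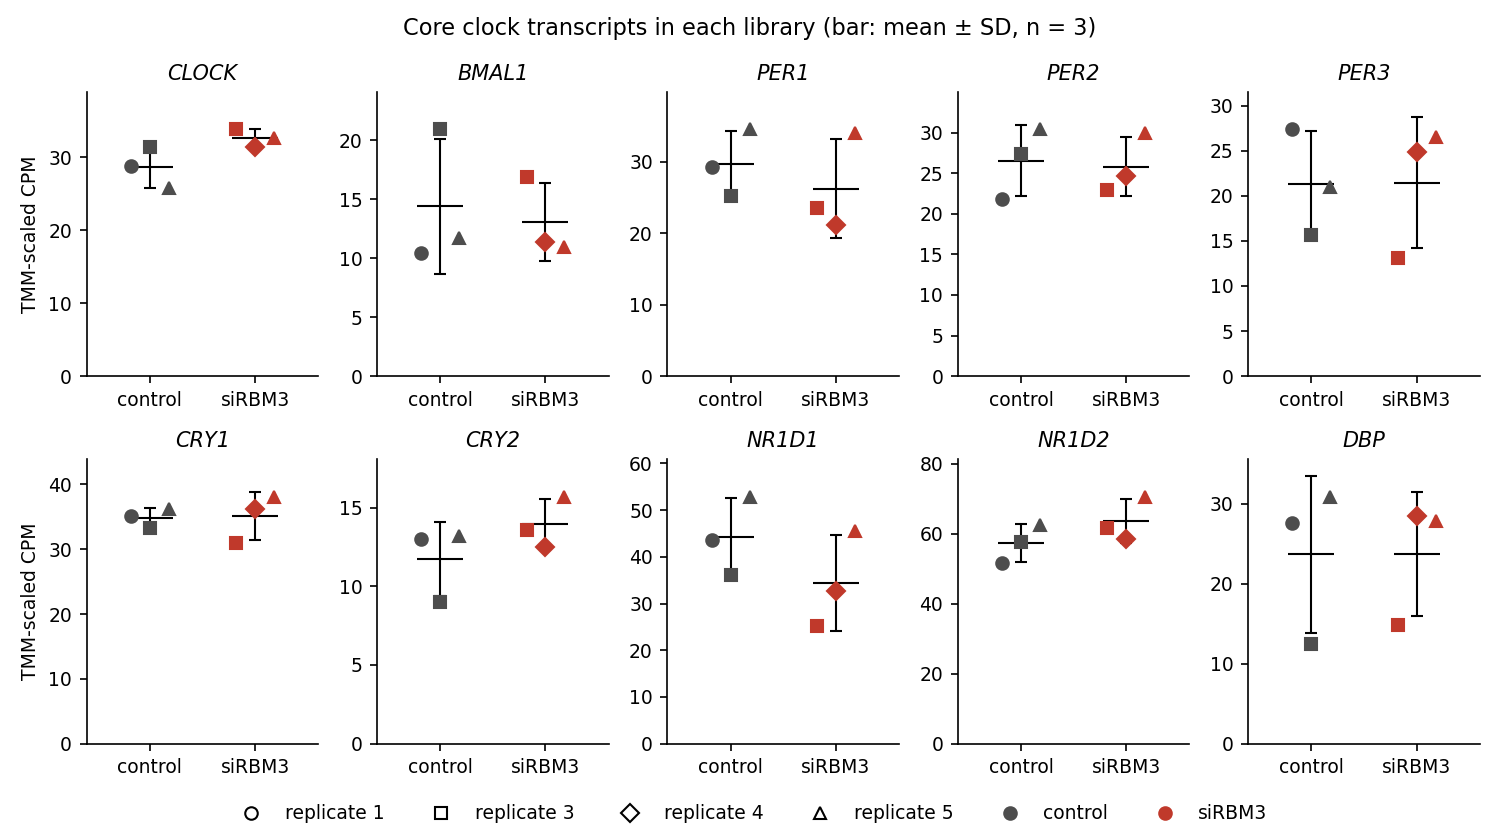
TMM-scaled CPM of each core clock gene (y axis, from 0) in the 3 control and 3 siRBM3 libraries; symbols mark the replicate number and bars the mean ± SD (n = 3). The groups overlap in all 10 panels. In BMAL1 and DBP the squares of replicate 3 lie away from the other libraries of their own group, and in PER3 they are the lowest of their group.

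CLOCK (ENSG00000134852, chromosome 4, 56294070 to 56413076, minus strand), the histone acetyltransferase partner of the heterodimer, was at 28.8 CPM in control replicate 1, 31.4 in control replicate 3 and 25.7 in control replicate 5. In siRBM3 replicates it was at 33.9 (replicate 3), 31.3 (replicate 4) and 32.7 CPM (replicate 5). The siRBM3 libraries lay at the upper end, and the groups met where control replicate 3 exceeded siRBM3 replicate 4. The means were 28.7 ± 2.85 and 32.6 ± 1.26 CPM (SD, n = 3). CLOCK differed by 0.19 on the log2 scale (95% interval -0.08 to 0.45), with the smallest p of the 10 genes, 0.142 unadjusted, and an FDR of 0.535 in edgeR. TMEM165, on the opposite strand, shares 0.659% of the exon bases of CLOCK and had 73.8 to 93.4 CPM.

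BMAL1 (ENSG00000133794, chromosome 11, 13298199 to 13408813, plus strand), the other partner and the gene on which the RORE loop closes, was at 10.5 CPM in control replicate 1, 21.0 in replicate 3 and 11.8 in replicate 5. With siRBM3 it was at 16.9 (replicate 3), 11.4 (replicate 4) and 10.98 CPM (replicate 5). The high libraries were replicate 3 in both groups, and the other 4 lay within 10.5 to 11.8 CPM. The log2 fold change was -0.13 (interval -0.80 to 0.53, FDR 0.881 in edgeR). Without both replicate 3 libraries, a choice made after seeing the data, it was 0.01 (interval -0.42 to 0.44).

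The PER genes encode the rate-limiting repressors of the loop. PER1 (ENSG00000179094, chromosome 17, 8043790 to 8059824, minus strand), which also responds directly to serum and cAMP, had 29.2, 25.2 and 34.6 CPM in control and 23.6, 21.1 and 34.1 CPM in siRBM3 libraries, in the order of their replicate numbers. Replicate 5 was the highest library of each group. The log2 fold change was -0.18 (interval -0.64 to 0.28, FDR 0.756 in edgeR). It was -0.41 without siRBM3 replicate 5 and -0.04 without siRBM3 replicate 4.

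PER2 (ENSG00000132326, chromosome 2, 239152685 to 239198743, minus strand), the partner of CRY in the repressor complex, had 21.8, 27.4 and 30.4 CPM in control and 22.9, 24.6 and 29.9 CPM in siRBM3 libraries. The ranges nearly coincided, and the log2 fold change of -0.04 (interval -0.41 to 0.33, FDR 0.937 in edgeR) lay close to 0. Of the remaining genes that share exon bases with members, ENSG00000225057 (PER2) had at most 0.724 CPM, ENSG00000257548 (CRY1) at most 0.301 CPM and ENSG00000263620 (PER1) no counts. ENSG00000290083, a lncRNA opposite to BMAL1 over 6.07% of its exon bases, was matched to no row of the count table.

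PER3 (ENSG00000049246, chromosome 1, 7844351 to 7905237, plus strand), a paralog with a lesser role in the loop, had 27.4, 15.6 and 21.0 CPM in control and 13.1, 24.8 and 26.5 CPM in siRBM3 libraries. The low libraries were replicate 3 in both groups. Group means were nearly equal at 21.4 ± 5.88 and 21.5 ± 7.30 CPM (SD, n = 3), and the interval of the log2 fold change reached from -0.67 to 0.68 around 0.001. UTS2 on the opposite strand shares 10.7% of its exon bases and a lncRNA (ENSG00000236266) 5.93%, and they had at most 0.517 and 0.379 CPM in any library.

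CRY1 (ENSG00000008405, chromosome 12, 107385142 to 107487327, minus strand), the stronger repressor of the cryptochromes, varied least of the 10, by 1.23-fold between the highest and the lowest library. It had 35.1, 33.3 and 36.2 CPM in control and 31.0, 36.3 and 38.1 CPM in siRBM3 libraries, with replicate 3 the lowest of each group. Its log2 fold change of 0.01 had an interval of -0.25 to 0.27 (FDR 0.978 in edgeR).

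CRY2 (ENSG00000121671, chromosome 11, 45868669 to 45904799, plus strand) had 13.0, 8.99 and 13.2 CPM in control and 13.6, 12.5 and 15.7 CPM in siRBM3 libraries. The one low library was control replicate 3. The log2 fold change of 0.25 (interval -0.17 to 0.67, FDR 0.615 in edgeR) was 0.09 without that library.

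NR1D1 (ENSG00000126368, chromosome 17, 38249046 to 38256842, minus strand) had the largest difference of the 10 genes, and it did not pass the test. It was at 43.6 CPM in control replicate 1, 36.1 in replicate 3 and 52.9 in replicate 5. With siRBM3 it was at 25.2 (replicate 3), 32.6 (replicate 4) and 45.4 CPM (replicate 5). The lowest library was siRBM3 replicate 3, while siRBM3 replicate 5 lay above a pair of controls. Group means were 44.2 ± 8.44 and 34.4 ± 10.2 CPM (SD, n = 3). On the log2 scale the difference was -0.36 (interval -0.88 to 0.16, unadjusted p = 0.146, FDR 0.539 in edgeR). The difference was -0.18 without siRBM3 replicate 3, -0.21 without control replicate 5 and -0.62 without siRBM3 replicate 5. Its size thus varied with the library left out, while it stayed negative whichever single library was left out.

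The 3′ end of NR1D1 overlaps that of THRA, a thyroid hormone receptor gene on the opposite strand, over 17.98% of the exon bases of NR1D1. The library kit was stranded, but no source used here gives the strand setting of the counting, so NR1D1, PER3, DBP and BMAL1 are uncertain by their overlaps. THRA had 51.5, 34.6 and 45.8 CPM in control and 39.0, 52.9 and 56.5 CPM in siRBM3 libraries. Its groups overlapped too, with both replicate 3 libraries below the other 4.

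NR1D2 (ENSG00000174738, chromosome 3, 23986777 to 24022108, plus strand) had the highest counts of the 10, with 51.7, 57.5 and 62.6 CPM in control and 61.7, 58.4 and 70.6 CPM in siRBM3 libraries. Its difference was opposite in sign to that of its paralog, at 0.15 on the log2 scale (interval -0.11 to 0.42, FDR 0.630 in edgeR), and it too was within the spread of the libraries.

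DBP (ENSG00000105516, chromosome 19, 49133287 to 49140636, minus strand), the D-box activator whose own gene is driven through E-boxes, varied most, by 2.47-fold between libraries. It was at 27.6 CPM in control replicate 1, 12.5 in replicate 3 and 30.9 in replicate 5. With siRBM3 it was at 14.8 (replicate 3), 28.4 (replicate 4) and 27.9 CPM (replicate 5). Replicate 3 was low in both groups and the other 4 libraries lay close together. Group means were 23.7 ± 9.80 and 23.7 ± 7.74 CPM (SD, n = 3), with a log2 fold change of -0.003 (interval -0.86 to 0.85). Without both replicate 3 libraries the interval narrowed to -0.38 to 0.28 around -0.05. SPHK2, on the opposite strand, shares 10.2% of the exon bases of DBP and stayed within 17.3 to 19.8 CPM in all 6 libraries.

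The width of the intervals differed between the genes. For CLOCK, PER2, CRY1 and NR1D2 the 95% interval lay within 1.5-fold in both directions, which held for 48.8% of all genes. For the other 6 genes the interval reached past 1.5-fold in at least one direction, and for DBP and PER3 in both. Without both replicate 3 libraries the interval lay within 1.5-fold for 8 of the 10, all but PER1 and NR1D1. That fit has fewer libraries and was chosen after seeing the data. The share of all genes was not computed for it, so nothing particular to the clock set is read from this count.

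**Figure D2:**
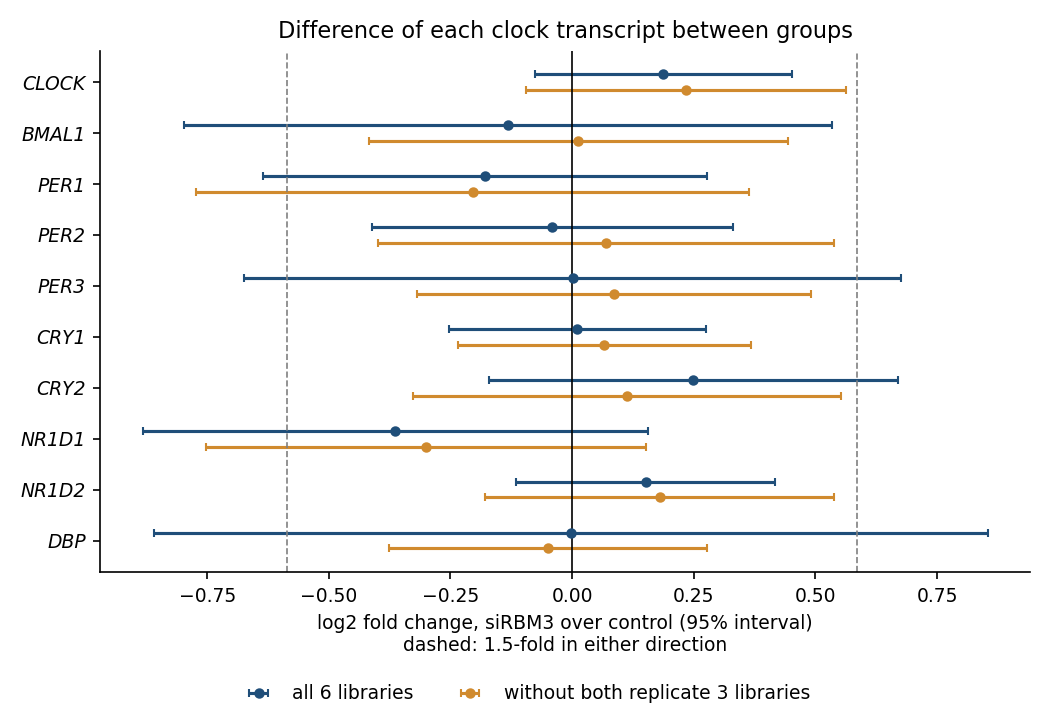
Log2 fold change (siRBM3 over control, x axis) of each core clock gene with its 95% interval, from all 6 libraries and from the 4 left without replicate 3; dashed lines mark 1.5-fold. Every interval holds 0, and those of BMAL1, PER3 and DBP narrow most without replicate 3.

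In part of the set the replicate 3 libraries stood apart whichever siRNA was used, a pattern chosen for description after its values were seen. In 4 of the 10 genes both replicate 3 libraries lay beyond the other 4, BMAL1 above and PER3, CRY1 and DBP below, where 25.3% of all genes did so in either direction. Libraries of this number thus stood apart in many genes, and nothing particular to the clock set is read from the count. On the log2 scale, the mean of both replicate 3 libraries gave 1.69-fold more BMAL1 than that of the other 4, while PER3 was 1.73-fold and DBP 2.10-fold lower. The log2 ratio of DBP to BMAL1 within a library had the widest range over the 6 libraries of the 4 ratios to BMAL1 computed, and was also chosen after its values were seen. It was 1.40 in control replicate 1, 1.39 in control replicate 5, 1.32 in siRBM3 replicate 4 and 1.35 in siRBM3 replicate 5, but -0.74 in control replicate 3 and -0.19 in siRBM3 replicate 3. It averaged 0.68 ± 1.24 in control and 0.82 ± 0.88 in siRBM3 libraries (SD, n = 3), a difference between siRNAs well inside the spread of each group. On a linear scale, the ratio of PER3 to BMAL1 was 0.746 and 0.775 in the replicate 3 libraries and 1.79 to 2.62 in the others.

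Other genes of the loop were examined beside these, also named after their values were seen. TEF, a paralog of DBP, had 29.8 and 15.6 CPM in the replicate 3 libraries and 37.1 to 60.0 CPM in the others. NPAS2, which can replace CLOCK, had 93.9 and 92.4 CPM in the replicate 3 libraries and 55.2 to 82.6 CPM in the others. NFIL3, a repressor at D-boxes, had 40.2 CPM in control replicate 3 and 29.8 CPM in siRBM3 replicate 3, the latter below control replicate 5 with 31.6 CPM. Over the whole list of other loop factors, both replicate 3 libraries lay beyond the other 4 in 2 of the 9 tested genes, TEF and NPAS2. Over all other clock genes this was so in 22 of 59, and over all tested genes in 25.3%. The labels do not say what the replicate number marks. The replicate 3 libraries also had the highest mitochondrial share of their group, 2.86% in control and 9.40% in siRBM3, and their part in the pattern was not tested.

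**Figure D3:**
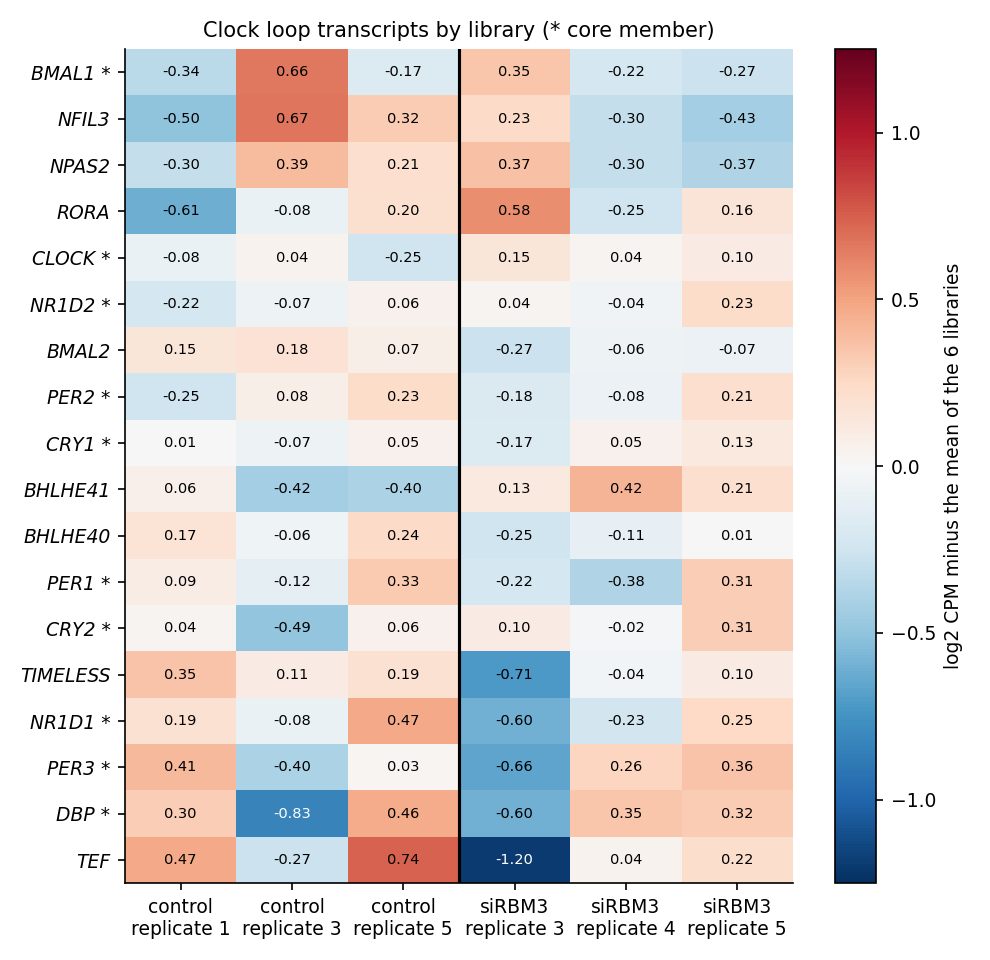
Log2 CPM of the core genes (starred) and the other tested loop genes in each library, as the difference from the mean of the 6 libraries (colour and printed values); RORB is left out for its low counts. In replicate 3 of both groups, CLOCK, BMAL1, NFIL3 and NPAS2 are above their mean. PER1, PER3, CRY1, NR1D1, DBP, TEF and BHLHE40 are below it, and the other genes shown differ in sign between the groups.

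Per length, NR1D1 had the highest mean level of the core clock transcripts in the control libraries. Its exon overlap with THRA applies to this value too. Divided by the length of the MANE Select transcript, NR1D1 was at 16.8 ± 3.21 CPM per kb (SD, n = 3). CRY1 with 11.7 ± 0.48, NR1D2 with 10.9 ± 1.05 and DBP with 10.9 ± 4.52 CPM per kb followed and overlapped one another. PER1 had 6.34 ± 1.00, BMAL1 5.17 ± 2.05 and PER2 4.16 ± 0.69 CPM per kb. PER3 with 3.35 ± 0.92, CRY2 with 2.84 ± 0.57 and CLOCK with 2.74 ± 0.27 CPM per kb were the lowest. Among neighbours in this order, only NR1D1 and CRY1 did not overlap in the control libraries. The lowest control library of NR1D1 (13.7) lay under the highest of DBP (14.2). NR1D1 also had the highest siRBM3 mean. In siRBM3 replicate 3, however, it was at 9.58 CPM per kb, below NR1D2 with 11.8 and CRY1 with 10.4. In siRBM3 replicate 4 it was at 12.4 CPM per kb, below DBP with 13.1. The order depends on the length taken. With the union of all annotated exons, chosen after seeing the data, NR1D1 remained first but DBP moved from rank 4 to rank 6 and BMAL1 from rank 6 to rank 9, while CRY2 took the last rank and CLOCK rank 8.

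**Figure D4:**
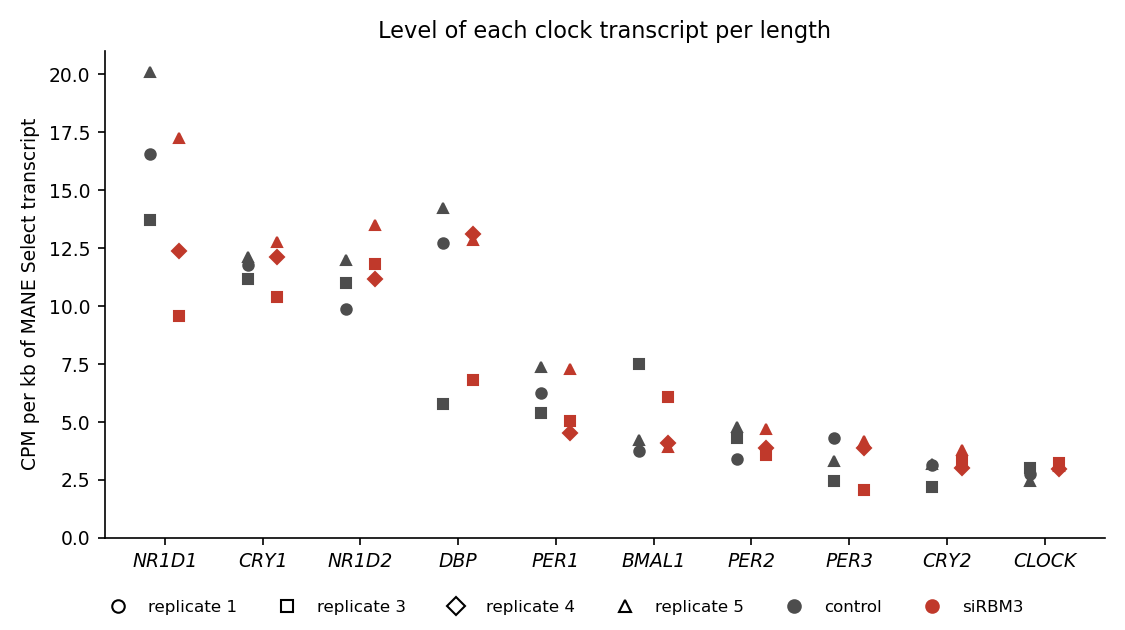
Level of each core clock gene in CPM per kb of its MANE Select transcript (y axis, from 0) in each library, ordered by the control mean. NR1D1 has the highest control mean and CLOCK the lowest, and control and siRBM3 points overlap in every gene.

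The rest of the pathway was read from lists of 66 other clock genes, of which 59 could be tested. None was called at the fold change of 1.5 and the FDR of 0.01 in edgeR or DESeq2, which called 0% and 1.22% of all genes. At an unadjusted p under 0.05 in edgeR 6 were higher and 9 lower, together 25.4% of the 59, where 6.56% and 6.58% of all genes were higher and lower. Their median log2 fold change was -0.01. The groups of libraries did not overlap in 18 of the 59, where 19.9% of all genes separated. Without both replicate 3 libraries 9 of the 59 were under that p, where 8.03% of all genes in that fit were. BMAL2, WDR5, KHSRP, NOCT, MRTFB and WEE1, named below for their p in all 6 libraries, were not under it in that fit. CSNK2B and HNRNPA1 were listed at or near 0 in all libraries and could not be tested. These values are not read as absence of the mRNAs, and the part of the counting in them was not tested.

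In the loop itself, 9 of 12 other factors were tested, with 1 higher and 1 lower (6.56% and 6.58% of all genes). Their median was -0.24 on the log2 scale. HLF and CIART were among those too low to test. BHLHE41 (DEC2), a repressor that competes for E-boxes, had 29.3, 20.8 and 21.2 CPM in control and 30.6, 37.5 and 32.5 CPM in siRBM3 libraries, with no overlap. It differed by 0.49 on the log2 scale (standard error 0.16, unadjusted p = 0.015, FDR 0.262 in edgeR). BMAL2, a paralog of BMAL1, had 53.2, 54.1 and 50.3 CPM in control and 39.6, 45.8 and 45.6 CPM in siRBM3 libraries, or -0.27 on the log2 scale (unadjusted p = 0.0307, FDR 0.324 in edgeR).

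Of 24 genes whose products modify clock proteins, 21 were tested, with 3 higher and 3 lower (6.56% and 6.58% of all genes). Their median was 0.05. BTRC and FBXW11, paralogous F-box proteins that mark phosphorylated PER for degradation, differed in opposite directions. BTRC had 29.7, 25.9 and 28.1 CPM in control and 42.2, 40.3 and 43.3 CPM in siRBM3 libraries, clear of overlap. It had the smallest p of the 59 genes, at 0.59 on the log2 scale (standard error 0.11, FDR 0.0931 in edgeR). DESeq2 gave BTRC an adjusted p of 6.31e-04 (Benjamini-Hochberg), with a log2 fold change of 0.58 that missed the threshold of 1.5-fold.

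FBXW11 had 83.7, 82.6 and 72.1 CPM in control and 55.8, 67.0 and 56.3 CPM in siRBM3 libraries, or -0.41 on the log2 scale (unadjusted p = 0.00615, FDR 0.202 in edgeR). CSNK2A2, a catalytic subunit of casein kinase 2, went from 117 ± 3.10 to 148 ± 2.89 CPM (SD, n = 3), or 0.34 on the log2 scale with an FDR of 0.157 in edgeR. HDAC3, the deacetylase recruited by the NR1D receptors, went from 77.6 ± 2.53 to 61.7 ± 4.25 CPM (SD, n = 3), with an FDR of 0.214 in edgeR. EP300, an acetyltransferase that serves the heterodimer as coactivator, had a log2 fold change of 0.34 (FDR 0.325 in edgeR), or 0.22 without siRBM3 replicate 3. WDR5, a subunit of histone methyltransferase complexes, had -0.26 (FDR 0.309 in edgeR). The casein kinase 1 genes CSNK1D and CSNK1E, which phosphorylate PER, did not pass at an unadjusted p of 0.05, with log2 fold changes of 0.05 and -0.18.

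Among 12 regulators of clock mRNAs, 11 were tested, with 0 higher and 2 lower (6.56% and 6.58% of all genes). Their median was -0.02. KHSRP, an mRNA decay factor, went from 324 ± 19.2 to 267 ± 13.5 CPM (SD, n = 3), or -0.28 on the log2 scale (FDR 0.257 in edgeR). NOCT, which encodes nocturnin, had a log2 fold change of -0.46 (FDR 0.322 in edgeR). CIRBP, the relative of RBM3, had 104, 105 and 120 CPM in control and 123, 112 and 123 CPM in siRBM3 libraries. Its difference of 0.12 on the log2 scale did not pass (unadjusted p = 0.241, FDR 0.642 in edgeR), and the groups overlapped.

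Of 9 genes that carry serum, cAMP and glucocorticoid signals to the PER promoters, 1 was higher and 0 lower, with a median of -0.01. That gene was MRTFB, a coactivator of the serum response factor, at 0.35 on the log2 scale (unadjusted p = 0.0220, FDR 0.295 in edgeR). Of 9 genes described as outputs of the clock, 1 was higher and 3 lower, with a median of -0.22. Beside both lists, 6.56% and 6.58% of all genes were higher and lower. WEE1, a kinase that holds cells before mitosis, had 50.9, 57.6 and 78.3 CPM in control and 96.8, 81.4 and 111 CPM in siRBM3 libraries, without overlap. It differed by 0.63 on the log2 scale (unadjusted p = 0.00733, FDR 0.214 in edgeR). TSC22D3, a glucocorticoid-induced gene, had 40.6, 61.2 and 61.3 CPM in control and 37.4, 35.2 and 30.3 CPM in siRBM3 libraries, or -0.66 on the log2 scale (unadjusted p = 0.00470, FDR 0.184 in edgeR). VEGFA, an angiogenic growth factor, had a log2 fold change of -0.67 (FDR 0.302 in edgeR), with overlapping groups, and -0.43 without control replicate 3. These outputs have other regulators than the clock.

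**Figure D5:**
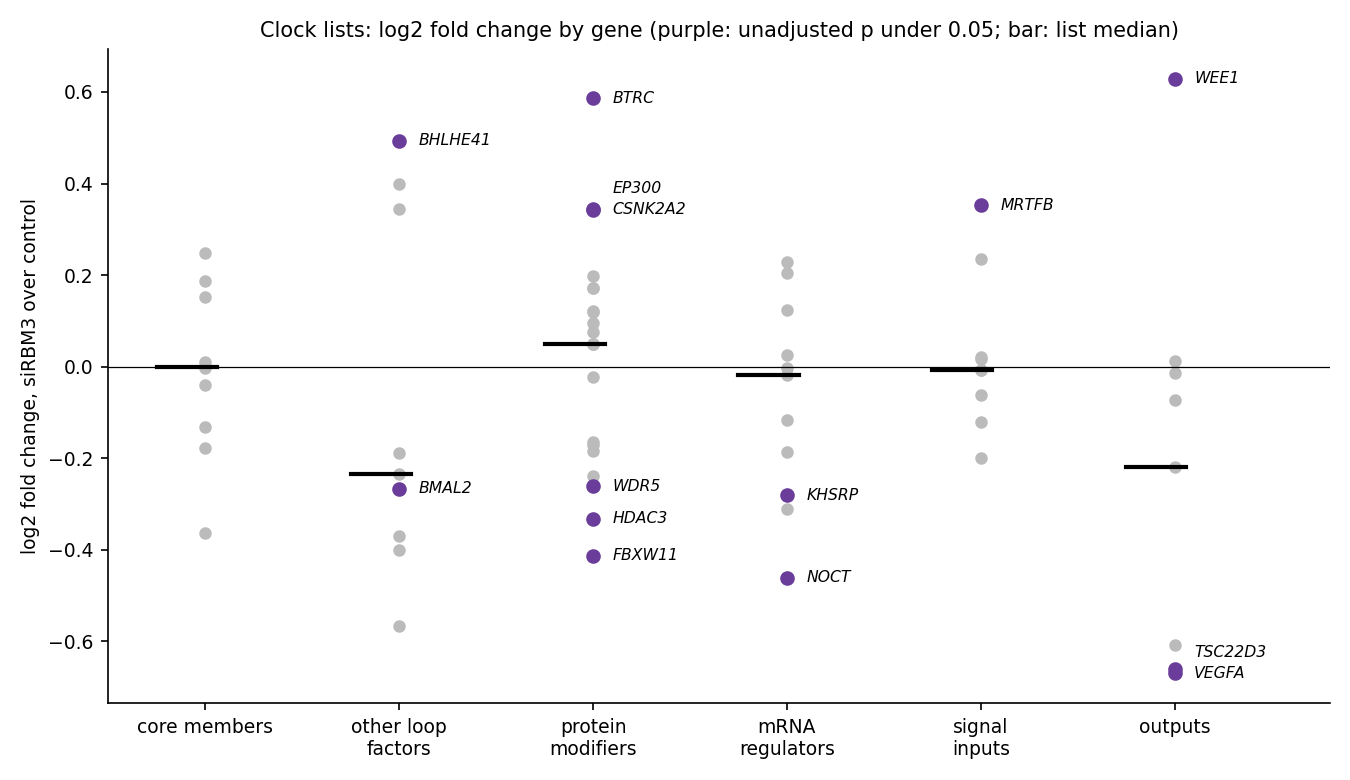
Log2 fold change (siRBM3 over control, y axis) of the tested genes of the core set and of the 5 other clock lists, but for 1 output gene that is not shown; purple points have an unadjusted p under 0.05 in edgeR and are named, and black bars are list medians. No core gene is purple, and the named genes of the other lists lie on both sides of 0.

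The patterns most like that of CLOCK over the 6 libraries, by the Pearson correlation of log2 CPM, were those of LRIG2 (r = 0.998), ZMYM2 (r = 0.996) and NFAT5 (r = 0.991). This is a description of 6 libraries, in which 258 of 15098 genes had an r above 0.9 with CLOCK. No core clock gene was among these 3.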

How the data were processed

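The values deposited by the authors are raw counts per Ensembl gene identifier. The authors trimmed the reads with BBDuk, used STAR for alignment to hg19/GRCh37, Picard to mark duplicates and featureCounts for the counting. No source used here gives the annotation release, the strand setting or whether marked duplicates were counted. Groups and replicate numbers came from the sample titles. Library totals were 23603992 to 45098612 counts, and 3 libraries per group limit the precision.

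Genes were kept by filterByExpr (minimum count 10, minimum total 15), scaled by TMM and fitted with the robust quasi-likelihood test of edgeR 4.0.16 (R 4.3.3), with Benjamini-Hochberg adjustment over 15099 genes. The 95% intervals come from the same fit. Alternatives were DESeq2 1.42.0, limma-voom (3.58.1), other scalings and filters, a replicate block and left-out libraries. The fits were tested on simulated data. The members and lists were chosen with earlier results of these data known. From the other lists, genes at an unadjusted p under 0.05 were named (up to 8 per list), as were genes sharing exon bases with a member and the 3 genes most like the member with the smallest p. TEF, NPAS2, NFIL3, CSNK1D, CSNK1E and CIRBP fall outside this rule and were chosen after their values were seen. Some genes of the lists are counted but not reported here by name. Symbols and transcript lengths came from GENCODE v44lift37 and promoter windows from RefSeq (GRCh38.p14).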

Additional observations from a re-analysis of the deposited data

How the results depend on the processing

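No core clock gene was called under any of the 14 alternatives. Over all genes, 159 were called with DESeq2, 279 without a filter on low counts, 336 with the replicate block and 0 to 1 with a library left out, and RBM3 passed in the first 3 of these, with -2.14, -2.135 and -2.57 on the log2 scale (range with a library left out -2.40 to -1.96). Of 140 values of the 10 genes, 116 kept their direction and 24 reversed, in BMAL1, PER2, PER3, CRY1 or DBP. DBP was 0.00104 with DESeq2, 0.00524 without a filter and 0.0373 with the block. PER3 was -0.0807 with limma-voom, -0.000527 with RLE factors and -0.0349 by library size alone. CRY1 was -0.00493 with limma-voom, -0.0322 by library size alone and -0.0134 with the block. Without both replicate 3 libraries, BMAL1 was 0.0129 and PER2 0.069, 9 other clock genes were at an unadjusted p under 0.05 (8.03% of all genes in that fit) and the groups of 2 core genes, CLOCK and CRY1, did not overlap (39.8% of all genes). With a library left out, BMAL1 ranged from -0.36 to 0.24, PER1 from -0.41 to -0.044, NR1D2 from 0.068 to 0.22, CLOCK from 0.11 to 0.26, CRY2 from 0.09 to 0.34, NR1D1 from -0.62 to -0.18, PER2 from -0.17 to 0.068, PER3 from -0.18 to 0.26, CRY1 from -0.0533 to 0.0937 and DBP from -0.31 to 0.25. Then 0 to 2 core genes were under an unadjusted p of 0.05 (PER1 and NR1D1, without siRBM3 replicate 5, where 10.4% of all genes were). The groups of 0 to 2 core genes did not overlap (26.7% to 35.4% of all genes). In these fits 10 to 16 other clock genes were under that p, where 9.19% to 16.1% of all genes were. Without a filter 1 core gene, NR1D1, and 21 other clock genes were under it, as were 9.43% of all genes. The replicate block put 22 other clock genes under it, and 24.8% of all genes. The cause was not tested.

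The labels do not say that the replicate number marks a shared batch, and only numbers 3 and 5 occur in both groups. Deviations of same-numbered libraries correlated by 0.528 (replicate 3), the highest of the 9 pairs of a control and an siRBM3 library, and 0.0884 (replicate 5). What the number marks is not known, so the libraries were not treated as pairs, and whether the replicate 3 libraries share a source was not tested. With the replicate block 2 core genes were under an unadjusted p of 0.05 in edgeR, CRY2 (0.42, FDR 0.119) and NR1D1 (-0.37, FDR 0.0743), where 24.8% of all genes were under it. With 3 libraries per group, a 1.5-fold change in PER3 or DBP lay inside their 95% intervals in both directions.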
